A study of Mus musculus with 7 samples.

Results

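The bradykinin receptor genes Bdkrb1 and Bdkrb2, the prostaglandin synthesis genes Ptgs1, Ptgs2, Ptges and Ptgis, and the prostaglandin E2 receptor genes Ptger2 and Ptger4 were examined in dermal fibroblasts of female FVB/N mice. These 8 genes were found by symbol among 23583 gene entries shared by both RNA tables, and each had 1 entry with a valid estimate in both. They were chosen with the RNA differences already in view, so their RNA values are a description. Primary cells grown for 8 days were left untreated or treated with thapsigargin for 3 h. Thapsigargin empties the calcium store of the endoplasmic reticulum by inhibiting its pump, and thereby induces the stress factor ATF4. The RNA, the CEBPB immunoprecipitations of untreated and of treated cells and the ATF4 immunoprecipitation of treated cells had 1 library per condition, and methylation came from 2 bisulfite libraries of untreated cells that the authors pooled. No difference between conditions therefore has a replicate check or a p-value.

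Bradykinin is a short peptide that is released in injured tissue and acts through G protein-coupled receptors, of which the B2 type is usually present and the B1 type is induced by inflammation. Prostaglandins are made from arachidonic acid by the cyclooxygenases, which yield prostaglandin H2, and by terminal synthases such as those for prostaglandin E2 and prostacyclin. Fibroblasts are a known source of prostaglandin E2 in skin, where the peptide and the lipid both take part in pain and swelling.

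The bounds in the RNA tables implied 53915048 fragments in genes for the untreated library and 78944295 for the treated one, and positions are given on the mm9 build. All 6 fibroblast markers examined stood at FPKM 1 or more (fragments relative to transcript length and library size) in both libraries. The treated estimate of 1 of the 6 macrophage markers, Itgam, had failed. The other 5 stood at FPKM 1 or more in both, with a sum of 1005 before and 1072 after treatment. Most of that sum was Lyz2, at 880 and 951. Csf1r also had a higher value, 20.5 and 36.5. Lower values were those of Cd68 (86.4 and 71.6), Emr1 (14.3 and 9.32) and Ptprc (4.41 and 3.26). Summed FPKM of the fibroblast markers was 14215 and 2656, of 4 keratinocyte markers 20.9 and 1.16, of 5 mast cell markers 15.4 and 0.229, of 4 endothelial markers 2.40 and 1.02 and of 4 platelet markers 27.3 and 10.7. Of the endothelial markers 0 reached FPKM 1 in either library, and the platelet marker Gp9 was under 0.1 in both. In such bulk RNA, fewer cells of a type and less RNA per cell cannot be told apart. The part of these cells in the values below was not tested.

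RNA of both bradykinin receptors, of both cyclooxygenases, of the inducible prostaglandin E synthase and of the receptor Ptger2 was higher after thapsigargin. The receptor Ptger4 had a lower value and the prostacyclin synthase gene Ptgis a moderately higher one. A gene is called higher or lower here when it reached FPKM 1 in at least 1 library and log2(FPKM + 1) differed by 1 or more, a scale that understates changes of low genes. By that rule 6 of the 8 genes were higher and 0 lower, where 6.02% of the 12207 expressed entries were higher and 28.2% lower. The median log2 change was 1.49 over the 8 genes and −0.52 over all expressed entries. Since the genes were chosen on this contrast, the share supports nothing further.

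The B1 receptor gene Bdkrb1 (chr12:106842301-106843638) stood at FPKM 0.692 in the untreated library (authors' bounds 0.505 to 0.879) and 27.4 in the treated library (26.5 to 28.2). The low value rests on 55 implied fragments and the high one on 4545, and the bounds do not overlap. The ratio was 39.5 (95% Clopper-Pearson interval 30.3 to 52.5, covering counting error only, as do all intervals below) and the log2 change 4.07, rank 16 of the expressed entries. Bdkrb2 (chr12:106801382-106831281), the neighbouring B2 receptor gene on the same strand, stood at FPKM 0.756 (0.585 to 0.928) and 5.60 (5.28 to 5.92). Its ratio was 7.40 (5.88 to 9.43). The receptors were thus at levels with overlapping bounds in untreated cells, while in treated cells Bdkrb1 was 4.89 times as abundant per length as Bdkrb2.

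Ptgs2 (chr1:151947254-151955142), which encodes the inducible cyclooxygenase COX-2, stood at FPKM 6.53 (6.22 to 6.84) and 101.8 (100.9 to 102.6). The treated value rests on 57761 implied fragments, the ratio was 15.6 (14.9 to 16.3), and Ptgs2 ranked 7609 by FPKM among all entries before and 369 after treatment. Ptgs1 (chr2:36085946-36107789), which encodes the cyclooxygenase usually described as constitutive, stood at 5.98 (5.62 to 6.34) and 15.8 (15.4 to 16.2), a ratio of 2.64 (2.48 to 2.82). Per length, Ptgs2 RNA was 1.09 times that of Ptgs1 in the untreated library, with overlapping bounds, and 6.44 times in the treated library.

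Of the terminal synthases, Ptges (chr2:30744991-30758817), which encodes the microsomal prostaglandin E synthase that works with COX-2, stood at FPKM 8.69 (8.31 to 9.07) and 19.1 (18.7 to 19.5). Its ratio of 2.20 (2.10 to 2.31) and log2 change of 1.05 lie close to the threshold, and 13 of 71 windows of its transcript have near-identical copies elsewhere in the genome, so its value is uncertain. Ptgis (chr2:167028696-167066037), which encodes prostacyclin synthase, stood at 14.1 (13.4 to 14.8) and 22.0 (21.4 to 22.7), a ratio of 1.56 (1.48 to 1.66). It was the most abundant of the 8 genes in the untreated library. Its log2 change of 0.61 missed the threshold, and became 1.37 when set against genes of like exon junction density. Another annotated gene, 1110018N20Rik, covers 6.08% of its exonic bases.

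The E2 receptor genes Ptger2 and Ptger4 differed in direction. Both encode receptors that raise cyclic AMP. Ptger2 (chr14:45607786-45623495), the gene of the EP2 receptor, stood at FPKM 0.541 (0.448 to 0.635) and 4.04 (3.87 to 4.22), a ratio of 7.47 (6.27 to 8.97). Ptger4 (chr15:5183404-5193831), the gene of the EP4 receptor, stood at 7.04 (6.52 to 7.55) and 4.92 (4.70 to 5.15), an untreated-to-treated ratio of 1.43 (1.31 to 1.56). Its log2 change was −0.44, or −0.04 after centring on the median of entries that reached FPKM 5 in both libraries. Ptger4 RNA was 13.0 times as abundant per length as Ptger2 RNA in untreated cells and 1.22 times in treated cells. Other genes cover 16.5% of the exonic bases annotated to Ptger4.

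**Figure D1:**
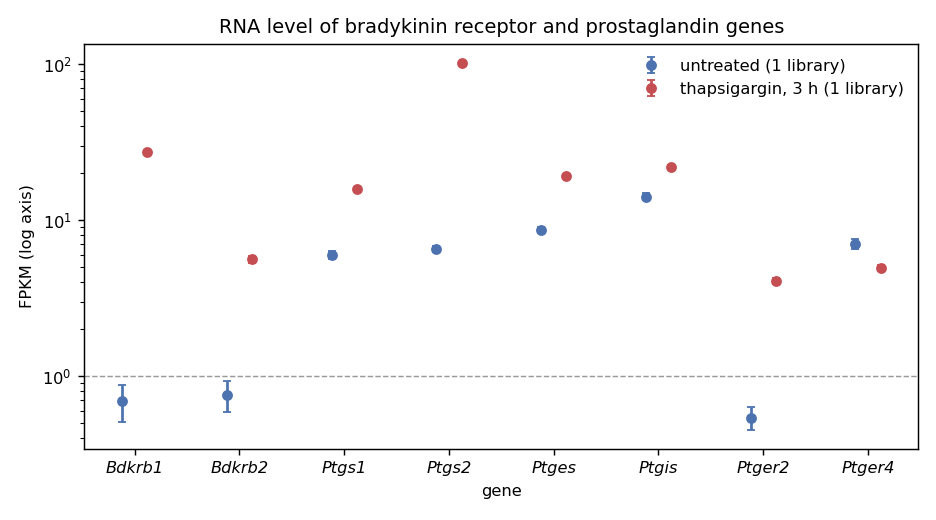
RNA level of each of the 8 genes as FPKM on a log axis, with 1 point per library (untreated or 3 h thapsigargin) and bars for the authors' confidence bounds. Bdkrb1, Bdkrb2 and Ptger2 lie below the dashed line at FPKM 1 in the untreated library and above it in the treated library, and Ptger4 alone has the lower value after treatment.

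In order of level, Ptgis, Ptges, Ptger4, Ptgs2 and Ptgs1 ran from FPKM 14.1 to 5.98 in the untreated library, followed by Bdkrb2, Bdkrb1 and Ptger2 below FPKM 1. The bounds of Ptger4 and Ptgs2, of Ptgs2 and Ptgs1, of Bdkrb2 and Bdkrb1 and of Bdkrb1 and Ptger2 overlapped. After treatment the order was Ptgs2, Bdkrb1, Ptgis, Ptges, Ptgs1, Bdkrb2, Ptger4 and Ptger2, and no neighbouring bounds overlapped. Over these 2 libraries, the entries nearest to Bdkrb1 in log2(FPKM + 1) were Ereg at a distance of 0.10, Fosl1 at 0.39 and Clec4e at 0.46. Nearest to Ptgs2 were Ifi27l2a at 0.19, Phlda1 at 0.39 and Ccl3 at 0.44.

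Change in the treated library went with gene structure among the 8744 annotated genes that reached FPKM 5 in at least 1 library. Genes without an exon junction had a median log2 change of 0.34 (128 genes), and genes with over 4 junctions per kb had −0.90 (4140 genes). Among the 8 genes, junctions per kb were 0 in Bdkrb1, 0.271 in Ptger2, 0.608 in Ptger4, 1.19 in Bdkrb2, 1.41 in Ptges, 2.17 in Ptgs2, 3.39 in Ptgs1 and 4.77 in Ptgis. Set against genes of like junction density, log2 changes were 4.08 for Bdkrb1, 3.96 for Ptgs2, 2.05 for Bdkrb2, 1.79 for Ptgs1, 1.66 for Ptger2, 1.19 for Ptges and −0.41 for Ptger4. With Ptgis, 7 of 8 then passed the threshold upwards, where 12.4% of the entries did.

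The other genes of these pathways mostly had lower values, as did the table as a whole. Of 68 listed genes of arachidonate release, prostanoid, leukotriene and kinin metabolism and signalling, 67 had an entry and 43 were expressed. Of these, 3 were higher and 19 lower, or 6.98% and 44.2%, with a median log2 change of −0.68 beside −0.52 for all expressed entries. Centred in the same way, 4 were higher and 10 lower, or 23.3% lower beside 15.8% of all expressed entries. Set against genes of like junction density, 4 were higher and 11 lower, or 25.6% lower beside 10.6% of entries. The 8 genes above were not part of this list.

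Among synthases, Ptges2, which encodes a second, membrane-associated prostaglandin E synthase, stood at FPKM 11.1 and 3.33, an untreated-to-treated ratio of 3.33 (3.06 to 3.64). Ptges RNA was 0.782 times that of Ptges2 in the untreated library and 5.73 times in the treated library. Akr1b8, an aldo-keto reductase gene placed with the synthases in the list used here, stood at 23.4 and 82.8, a ratio of 3.54 (3.37 to 3.72). Whether its enzyme takes part in prostanoid synthesis was not examined. Ptges3, which encodes the cytosolic E synthase and HSP90 co-chaperone p23, stood at 34.5 and 73.4, but 71.8% of its windows have copies, as do 92.6% of those of Akr1b3, at 3.68 and 0.325. Hpgds, the prostaglandin D synthase gene of mast cells and other haematopoietic cells, stood at 6.22 and 2.14. Pla2g4a, which encodes the phospholipase that releases arachidonic acid, stood at 21.6 and 16.4, a log2 change of −0.38 that became 0.52 against genes of like junction density. Among the 7 expressed genes of release 0 were higher and 2 lower, where 28.2% of all expressed entries were lower. Both calls, Pla2g6 and Daglb, were lost against genes of like junction density, with log2 changes of −0.33 and −0.47.

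Of the other prostanoid receptor genes, 4 of 6 expressed were lower, before and after junction adjustment. Ptger3, the gene of the EP3 receptor, which lowers cyclic AMP, stood at FPKM 23.0 and 6.23, an untreated-to-treated ratio of 3.69 (3.48 to 3.93). The thromboxane receptor gene Tbxa2r stood at 32.9 and 9.58, and Ptgfrn, which encodes a protein that associates with the prostaglandin F receptor, at 48.3 and 18.2. The prostacyclin receptor gene Ptgir stood at 2.34 and 3.94, and Ptgfr at 4.73 and 4.05. Of Ptger2, Ptger3 and Ptger4, Ptger3 thus had the highest untreated level per length, and Ptger2 alone was higher after treatment.

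Slco2a1, which encodes the prostaglandin uptake transporter, had FPKM 0.556 before and 2.39 after treatment, and the ratio was 4.30 (3.62 to 5.13). Ptgr1, a prostaglandin reductase gene, stood at 17.0 and 2.87, and Hpgd, whose enzyme inactivates prostaglandins, at 1.77 and 2.42. Kinin-degrading enzymes were lower in 4 of 7 expressed genes, where 28.2% of all expressed entries were, and in 2 of 7 after junction adjustment, where 10.6% of entries were. Mme, the gene of neprilysin, had 4.85 and 0.360, an untreated-to-treated ratio of 13.5 (11.6 to 15.7), while Xpnpep1 had a log2 change of −1.13 that became 0.66 against genes of like junction density. Serping1, which encodes the inhibitor of kallikrein and complement proteases, stood at 65.8 and 16.4. The kininogen genes Kng1 and Kng2 were below FPKM 1 in both libraries, as were Klkb1, Klk1 and F12.

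In the leukotriene branch, Lta4h stood at FPKM 34.8 and 2.54, with a log2 change of −3.34, or −1.55 against genes of like junction density. Alox5ap, which encodes the helper protein of 5-lipoxygenase and is abundant in macrophages, stood at 30.4 and 48.3. The stimulatory G protein gene Gnas, which couples EP2 and EP4 to cyclic AMP, stood at 1320 and 910, and Gnaq, which couples kinin receptors to calcium, at 17.4 and 11.8.

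**Figure D2:**
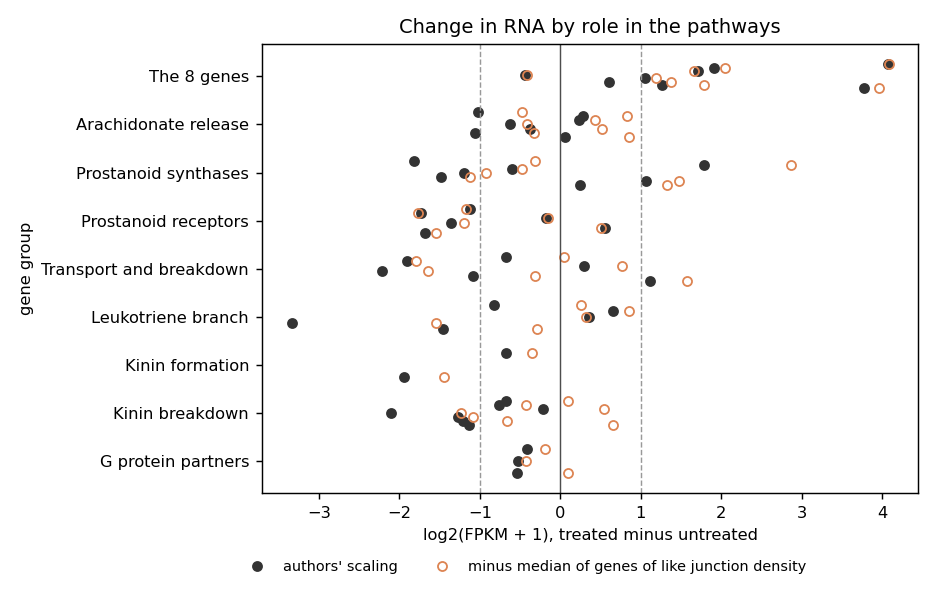
Log2(FPKM + 1) of treated minus untreated cells for the 8 genes and the 43 other expressed pathway genes by role, with filled points on the authors' scaling, open points after setting each gene against genes of like junction density, and dashed lines at −1 and 1. Of the 8 genes 6 lie beyond 1, and 4 of the 6 other prostanoid receptor genes lie below −1 on both scales.

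CEBPB was listed near most of the 8 genes in both states, and its treated peaks with a C/EBP octamer were those shared with the untreated list. Within 50 kb of a locus lay 10 CEBPB peaks of untreated cells at 7 genes, 11 CEBPB peaks of treated cells at 7 genes and 5 ATF4 peaks at 4 genes, with the intergenic peak between the receptor genes counted once. Over all 23444 loci examined, 34.0% had such a CEBPB peak of untreated cells, 37.1% one of treated cells and 63.0% an ATF4 peak. Among expressed entries the shares were 44.1%, 43.6% and 81.0%. Ptgis had no CEBPB peak of either state within 100 kb. Scores are the authors' own values, rank peaks only within a list and were not compared between lists.

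The start of Ptgs2 held a peak of every list. The untreated CEBPB peak (chr1:151946859-151947411) had a score of 480, rank 89 of 7317, and the treated one (chr1:151946969-151947240) a score of 26.2, rank 249 of 7861. The ATF4 peak (chr1:151947248-151947444) overlapped the untreated CEBPB peak and began just past the end of the treated one, with a score of 5.25 at rank 5359 of 10109. Of the 5 ATF4 peaks near these genes, it alone overlapped a CEBPB peak of either state. The share of all ATF4 peaks that overlap a CEBPB peak was not computed, so this count sets no gene apart. The stretch of the treated CEBPB peak before the RefSeq start of Ptgs2, which lies 93 bp upstream of the start in the RNA tables (RefSeq on GRCm38.p6, placed by matching its sequence), is shown with its C/EBP octamer, searched as TTGCNNAA on both strands, in capitals. The octamer lies at −162 to −155 bp from the start used here. A stretch just past it is shown because it holds ACGTCA, the core of a cyclic AMP response element (CRE), at −81 to −76 bp from that start, a motif added after the sequence was seen.
Ptgs2 promoter peak, chr1:151946969-151947160, plus strand: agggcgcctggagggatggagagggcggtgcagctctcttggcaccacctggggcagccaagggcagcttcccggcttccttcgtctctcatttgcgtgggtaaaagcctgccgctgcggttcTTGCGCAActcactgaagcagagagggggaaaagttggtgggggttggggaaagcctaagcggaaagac
Ptgs2 promoter CRE-like site, chr1:151947163-151947188, plus strand: agtcaccactACGTCAcgtggagtcc

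Within 250 bp before a gene start, TTGCNNAA occurred at 8.51% of 20158 starts and ACGTCA at 7.96%. Of the 8 genes, Ptgs2 alone had any of the 6 motifs searched in that stretch, which were TTGCNNAA, TGATGCAA, CGATGCAA, TGACGTCA, TGATGNAAT and the NF-kB consensus site.

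Peaks away from gene starts held similar octamers. A further pair of CEBPB peaks lay downstream of Ptgs2, the treated one 45082 bp past the start, with a treated score of 35.1 at rank 152 of its list and an untreated score of 436 at rank 127. The receptor genes Bdkrb2 and Bdkrb1 shared a pair of CEBPB peaks in the sequence between them, where the treated one lay 4991 bp past the Bdkrb2 locus and 5786 bp before that of Bdkrb1, with a treated score of 25.1 at rank 278 and an untreated score of 86.5 at rank 3479. Ptger2 had a pair downstream, the treated one 50170 bp past its start at rank 103 and the untreated one at rank 245. These treated peaks are shown whole, with TTGCNNAA in capitals, and that of Ptger2 also holds a match to TGATGNAAT. TTGCNNAA occurred in 22.1% to 23.3% of all treated CEBPB peaks set to the same lengths.
Ptgs2 distal peak, chr1:151992200-151992473, plus strand: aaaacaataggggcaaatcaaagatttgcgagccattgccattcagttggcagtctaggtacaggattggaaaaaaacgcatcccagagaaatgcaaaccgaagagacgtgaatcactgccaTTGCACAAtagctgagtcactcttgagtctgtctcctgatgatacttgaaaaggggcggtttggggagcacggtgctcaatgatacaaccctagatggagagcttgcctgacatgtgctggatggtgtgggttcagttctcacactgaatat
Bdkrb intergenic peak, chr12:106836272-106836515, plus strand: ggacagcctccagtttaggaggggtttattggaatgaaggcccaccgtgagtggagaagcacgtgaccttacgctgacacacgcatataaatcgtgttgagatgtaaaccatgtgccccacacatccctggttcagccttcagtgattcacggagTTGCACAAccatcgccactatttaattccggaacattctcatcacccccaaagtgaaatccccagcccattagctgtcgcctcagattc
Ptger2 downstream peak, chr14:45657816-45658097, plus strand: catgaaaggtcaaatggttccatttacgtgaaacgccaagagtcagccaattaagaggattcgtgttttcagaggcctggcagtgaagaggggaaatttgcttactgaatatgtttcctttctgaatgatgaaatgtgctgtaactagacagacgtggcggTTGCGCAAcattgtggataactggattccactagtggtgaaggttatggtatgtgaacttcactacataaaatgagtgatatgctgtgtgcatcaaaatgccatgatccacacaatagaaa

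Upstream of Ptges, 26310 bp before its locus, a CEBPB peak of untreated cells (score 394, rank 170) overlapped one of treated cells (chr2:30785300-30785567, score 17.7). It held a C/EBP octamer and a whole CRE, TGACGTCA, which occurred in 0.522% of treated CEBPB peaks set to the same length of 268 bp. A further ACGTCA follows the CRE. The Ptges locus of the RNA tables ends well short of this peak, but GENCODE vM1 has a Ptges transcript without a coding sequence that starts under it, at position 30785383, so only the sites are shown, with the motifs in capitals. The other sites shown are those of Ptgs1 and Ptger4, all read on the strand that carries the motif as written.
Ptges upstream C/EBP site, chr2:30785437-30785464, plus strand: ctgtccattcTTGCACAAtcgctgtcct
Ptges upstream CRE, chr2:30785311-30785340, plus strand: tccgtgaTGACGTCAccACGTCAcactgga
Ptgs1 intron site, chr2:36103533-36103560, plus strand: atttagtttaTTGCATAAgggttacctg
Ptgs1 downstream site, chr2:36115485-36115512, minus strand: tcagtgatgaTTGCACAAttttcttaat
Ptgs1 distal site, chr2:36136844-36136871, minus strand: ctttggcttcTGATGCAAacaagcatgg
Ptger4 upstream site, chr15:5238540-5238567, plus strand: ctgtctttgaTTGCGTAAtctttgagct

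The Ptgs1 intron site lay under CEBPB peaks of both states, 17597 bp into the gene. Its downstream site lay under a peak of the untreated list only, and the distal site under a peak of the treated list only, which held the composite C/EBP-ATF sequence TGATGCAA. Ptger4 had an untreated CEBPB peak 44408 bp and a treated one 35801 bp before its locus, and these did not overlap. Of the 11 treated CEBPB peaks, 6 overlapped an untreated CEBPB peak, and all 6 held TTGCNNAA, while the 5 others did not. The 6 ranked from 103 to 2724 of 7861 by score and were 168 to 282 bp wide. The 5 others ranked from 1561 to 7113 and were 155 to 229 bp wide. Over the whole treated list, 19.5% of peaks overlapped an untreated one, and TTGCNNAA occurred in 62.2% of the overlapping and 9.93% of the other peaks. These shares were taken over whole peaks and were not matched for width or score. The untreated list held the octamer in 9 of 10 peaks near these genes and in 68.1% of all its peaks.

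The ATF4 peaks at Ptgis (chr2:167065768-167066015) and Ptger4 (chr15:5192342-5192603) had their centres in coding exons, 146 bp and 1359 bp past the start. Near Ptges, 1 ATF4 peak lay in an intron of Prrx2 and 1 in a coding exon of Tor1b, 142 bp from a start of that gene. None of the 5 ATF4 peaks held any of the 6 motifs, and TTGCNNAA occurred in 2.12% and TGACGTCA in 1.24% of 200-bp windows at all ATF4 peak centres. The Tor1b peak lay 49719 bp from the Ptges locus, just inside the 50 kb window. Just outside it, at 50009 bp from Bdkrb1, lay an ATF4 peak in an intron of Atg2b, so the receptor genes had no ATF4 peak within the window.

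**Figure D3:**
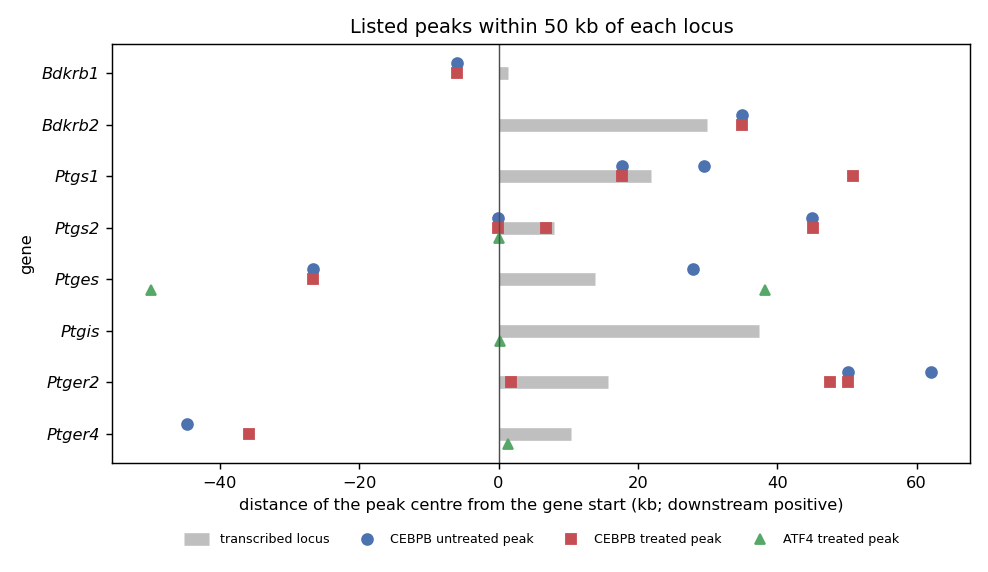
Centres of all listed peaks within 50 kb of each of the 8 loci by distance in kb from the gene start, with grey bars for the loci and separate symbols for the CEBPB list of either state and the ATF4 list. Ptgs2 has all 3 symbols at its start, and the symbol pair past the end of Bdkrb2 is the pair before Bdkrb1.

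CpG methylation was low at the starts of most of the 8 genes in untreated cells and high at the annotated start of Bdkrb1. The mean CpG methylation within 500 bp of the start was under 20% at 6 of 8 genes, where 63.4% of 19867 starts in all and 87.5% of those of expressed entries were. It was 0.733% at Ptger4 (116 cytosines), 1.84% at Ptgs2 (68), 5.56% at Ptgs1 (70), 8.35% at Ptgis (86), 9.66% at Bdkrb2 (67) and 11.3% at Ptges (69). Ptger2 had a mean of 41.8% over 18 cytosines, but 4.45% over 62 cytosines from 1000 to 1500 bp past the start. Each percentage was deposited without its number of reads, so the depth is unknown and no interval is given.

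At the annotated start of Bdkrb1 the mean was 81.9% over 46 cytosines, with values from 54% to 100%. No 500-bp window within 3 kb of it fell below 46.5%. Of 654 entries higher by 1 or more with CpGs at the start, 1.68% had a mean at or above that of Bdkrb1, and of all 11725 expressed entries 1.13% had. Like Bdkrb1, 276 of the expressed entries were under FPKM 1 in the untreated library, and 3.99% of these had such a mean, as had 4.32% of the 139 among them that were higher. The annotated Bdkrb1 model has 1 exon, and an upstream exon outside the model would move the start and this window. Methylation of treated cells was not measured. The 3' ends of the 8 loci had means from 46.0% at Bdkrb1 to 86.3% at Ptges.

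Methylation of the peaks differed from gene to gene. Of the 10 CEBPB peaks of untreated cells, 6 had means of 1.10% at the Ptgs2 start, 4.88% upstream of Ptges, 39.0% downstream of Ptgs2, 46.5% between the receptor genes, 57.4% downstream of Ptger2 and 68.4% upstream of Ptger4. The other 4 had 31.25% in the Ptgs1 intron, 59.8% downstream of Ptgs1, 69% in the Prrx2 intron near Ptges and 17% at the farther peak downstream of Ptger2. The median over all CEBPB peaks of untreated cells with a CpG was 39.0%. Within the octamers themselves, both cytosines of the TTGCGCAA at Ptgs2 averaged 1%, those of the same octamer at Ptger2 61.5% and those of TTGCGTAA at Ptger4 80%. The CRE upstream of Ptges averaged 0.5%. The ATF4 peaks at Ptgs2, Ptgis and Ptger4 had means of 3.22%, 4.68% and 0.952%, where 82.3% of all ATF4 peaks with a CpG were under 20%.

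**Figure D4:**
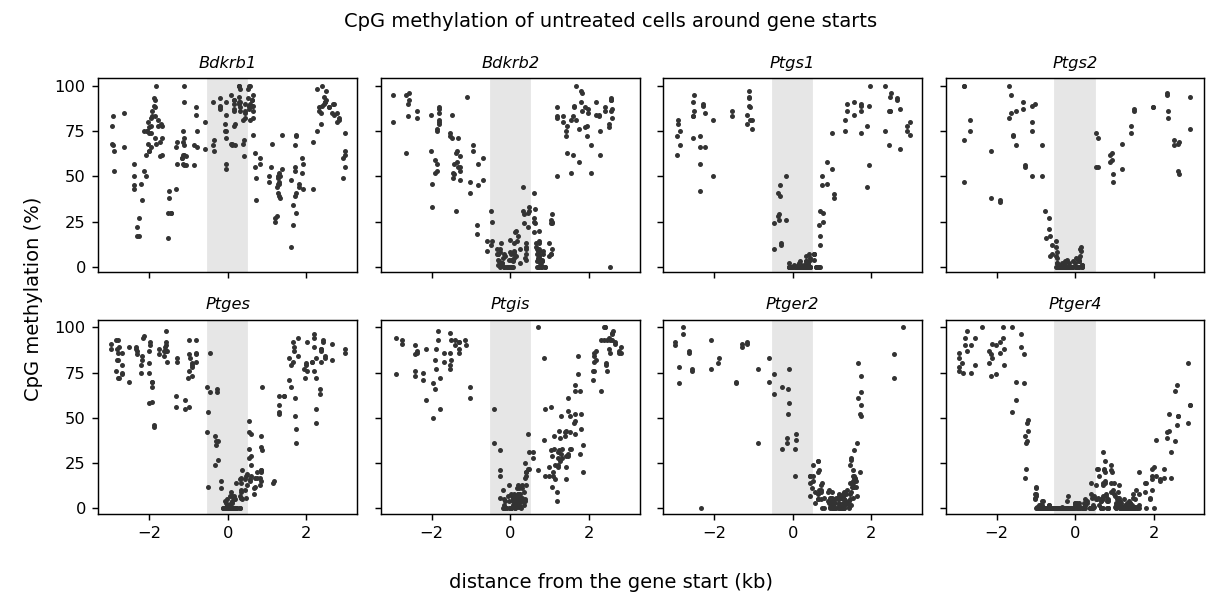
CpG methylation of untreated cells in percent for each listed cytosine within 3 kb of the start of each of the 8 genes, by distance in kb, with the 500 bp on either side of the start shaded. Points at Ptgs2 and Ptger4 lie near 0 in the shaded part, those at Bdkrb1 lie between 54% and 100%, and the low stretch of Ptger2 lies past its start.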

How the data were processed

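RNA values were FPKM with confidence bounds per gene entry, as deposited by the authors, and were joined by symbol and locus. Per the submitters' processing notes, RNA reads went through CASAVA 1.8.2 and Bowtie, immunoprecipitations through CASAVA 1.7, BWA and SAMtools, and bisulfite reads through CASAVA 1.8 and Novoalign, on mm9. Not given in the sources used here are the program behind FPKM, the peak caller's settings and its control. Peak lists gave a score per peak, deposited by the authors with 1 list per library. Methylation was a percent per CpG cytosine, deposited by the authors as pooled values without coverage. Of 39547384 cytosines, 83035 marked heterozygous were left out. Of 100000 sampled cytosines 98.54% were C on their strand in the NCBIM37 reference, which is the mm9 assembly of another strain than FVB/N.

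Fragments per entry were computed as the square of 2 × FPKM over the distance from FPKM to its upper bound. Of entries with 3 to 200 fragments, 73.7% and 79.3% came out whole within 0.05. Ratio intervals are exact binomial on these fragments. Gene structure came from GENCODE vM1 (20158 entries matched). For junction adjustment, 8744 genes that reached FPKM 5 in a library were ordered by junctions per kb in 50 bins, and each bin's median log2 change was subtracted. Copies were 100-bp transcript windows with at most 3 mismatches elsewhere (minimap2 2.31). The fragment and junction calculations were run on simulated data, made with the same bound formula and with an added linear junction trend. Such data check the code only, not whether the authors' bounds follow the formula.

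Named genes are the 8 members, expressed pathway genes, the 3 nearest entries to Bdkrb1 and Ptgs2 in log2 level, and the factor genes Cebpb and Atf4. Which pathway genes are named was chosen for the text by role after their values were seen. The same holds for the unexpressed kininogen and kallikrein-system genes and for the cell type markers that are named. Members, lists, motifs and rules were chosen with earlier results of these data known.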

Additional observations from a re-analysis of the deposited data

How the results depend on the processing

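With 1 library per condition no library could be left out, and no difference was tested. No paired analysis was possible because each RNA and immunoprecipitation condition had 1 library and no result came from a test. All 24 log2 changes of the 8 genes under another pseudocount (0.1), centring or junction adjustment kept their sign. In size, most moved by more than the counting error of the gene's ratio. Ptger2 went from 1.71 to 2.69 with the other pseudocount, and Ptgs1 from 1.27 to 1.79 with junction adjustment. Others did not, such as Bdkrb1 with 4.07 and 4.08 after junction adjustment. Of 34 counts recomputed, 29 stayed within 1.5 times. Pathway genes lower in the treated library numbered 19, but 10 after centring and 11 after junction adjustment. Higher ones numbered 3, but 1 without genes with copied windows, an alternative added after the data were seen, which tests fewer genes. Members with a CEBPB peak of untreated cells fell from 7 to 4 with a 10 kb window, and members with an ATF4 peak were 7 with a 100 kb window, which follow from the widths chosen. Members called higher ranged from 5 of 7 without copied genes to 7 of 8. The untreated values of Bdkrb1, Bdkrb2 and Ptger2 rest on 55, 78 and 134 fragments, which limits the precision of their ratios.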

Other observations

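Beyond the 50 kb window, another pair of CEBPB peaks lay downstream of Ptgs2, the untreated one 64918 bp past the start, with an untreated score of 274 at rank 434 of 7317 and a treated score of 15.4 at rank 681 of 7861. Its CpGs averaged 5.88% over 33 cytosines in the untreated peak. A treated CEBPB peak inside Ptgs2, 6755 bp past the start in the annotated untranslated region, had no untreated counterpart, a CpG mean of 79.8% over 4 cytosines and none of the motifs searched. The factor genes themselves stood at FPKM 33.4 and 210.7 for Cebpb, with Tmem189 covering 20.7% of its exonic bases, and at 208 and 849 for Atf4.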
